A study of Rattus norvegicus with 12 samples.

Results

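The Zfp family comprises genes that carry a Zfp symbol followed by a number, a name given in rodents to proteins with zinc finger domains. The raw count table of rat striatum listed 179 such symbols among 17337. The 171 with a mean count of at least 10 over all 12 libraries were taken as members, out of 12091 genes that reached this mean. Members were chosen by name and level alone, with no use of group differences. Just inside the limit were Zfp709l1 with a mean count of 14.7 and Zfp260 with 16.7, and just outside were Zfp474 with 9.83 and Zfp622 with 9.50. The other 6 symbols left out were Zfp352, Zfp7, Zfp697, Zfp951, Zfp74 and Zfp14, with mean counts from 0 to 5.92.

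Striatal RNA from 12 male Sprague-Dawley rats, wild type by the labels, was sequenced as poly(A)-selected libraries, 1 library per rat, after 16 days of methamphetamine (MA) self-administration. The MA12 group (n = 4; rats 21, 31, 4N and 7N) was sampled after 12 h of abstinence and the MA24 group (n = 4; rats 9N, 14N, 15N and 16N) after 24 h. A further group (n = 4; rats 9, 11, 12 and 13) had the same 16 days but is labelled Non-addicted, and the labels give no time between its last session and sampling. By the labels, all 3 groups took MA, and no group analysed here is labelled drug-naive. The paper describes saline, MA, MA12 and MA24 groups and none named Non-addicted, so the MA intake of these 4 rats rests on their labels alone. The question was which members differed between the 2 abstinence times, and between the Non-addicted rats and each of them. The letter N follows the number of every MA24 rat, of 2 of the 4 MA12 rats and of no Non-addicted rat. Its meaning is not given in the sources used here, so that in the comparison of Non-addicted rats with MA24 the group and the kind of number cannot be told apart.

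A zinc finger is a small protein fold held together by a zinc ion. Most proteins with a Zfp symbol carry arrays of C2H2 fingers that contact DNA bases, and many of these also carry a KRAB domain, which recruits the corepressor Trim28 and silences nearby chromatin. Others use zinc fingers to bind RNA or other proteins, as the Zfp36 group does with the CCCH type. The symbol thus joins genes by a structural element and not by a shared pathway.

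Library totals ran from 17908962 to 23850284 counts. The 171 members together took 0.507% to 0.554% of the counts in MA12 (0.535% ± 0.0212, SD, n = 4), 0.50% to 0.512% in MA24 (0.505% ± 0.00518) and 0.517% to 0.553% in Non-addicted rats (0.531% ± 0.0168). In these shares of raw counts, the MA12 and MA24 ranges overlapped through rat 4N of MA12, whereas those of MA24 and Non-addicted rats did not. The scaling factors of the fits (TMM) were not applied to them. Those factors ran from 0.973 to 1.06 in MA12, 0.959 to 0.990 in MA24 and 0.976 to 1.03 in Non-addicted rats. Which ranges overlap may therefore change with the scaling. Over the same libraries, the ribosomal protein genes took 1.98% to 2.34% in MA12, 2.07% to 2.54% in MA24 and 2.04% to 2.37% in Non-addicted rats. In whole striatum, fewer cells of a type and less RNA per cell cannot be told apart. All 11 markers of striatal projection neurons that were examined had counts.

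The members were mostly expressed at a moderate count. The mean count had a median of 387.5 and ran from 14.7 to 8748, with 154 members at 100 or more, 32 at 1000 or more and 10 below 50. All but 1 of the 171 members, Zfp709l1, had a count in every library. The highest counts were those of Zfp365, Zfp180, Zfp706, Zfp91, Zfp385a and Zfp523. Counts also rise with transcript length, for which no values were used here, so levels are compared between rats and not between genes.

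The precision of a member followed its count. The SD between rats of a group, on the log2 scale of counts scaled to library size (CPM), had a median of 0.426 for the 17 members with mean counts from 10 to 100 and of 0.137 for the 32 above 1000, against 0.491 and 0.115 for all genes in the same ranges. Zfp189, a KRAB-type member, was the exception at its count: with a mean count of 552.3 its SD was 0.572, the widest among the members with mean counts of 300 or more. The tightest was Zfp644, a partner of histone methyltransferases, at 0.063.

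The comparison of MA24 with MA12 asked which members differed after a further 12 h of abstinence. If sessions were held at the same time of day, the 2 groups were also sampled at opposite times of day. The further abstinence and the time of day cannot then be told apart. A gene was called a DEG at an adjusted p below 0.05 (edgeR's quasi-likelihood test, Benjamini-Hochberg over all genes tested) with an FC of at least 1.5 either way. Genes with low counts or with a variance among the lowest 15% were not tested, which left 160 of the 171 members. Only 1 member, Zfp148, was a DEG (0.625% of those tested), against 2.45% of all genes tested. At an adjusted p below 0.05 with no limit on FC, 2 members rose in MA24 (Zfp775 and Zfp513) and 4 fell (Zfp148, Zfp317, Zfp281 and Zfp483). Over all genes, 1.84% rose and 3.32% fell. The 6 were 3.75% of the members tested, against 5.16% of all genes, so the family was not called at a higher rate than the table as a whole. At an unadjusted p below 0.05 there were 31 members (19.4%) against 23.6% of all genes.

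Zfp148 encodes ZBP-89, a C2H2 protein that binds GC-rich promoter elements. Its counts were 1335, 1105, 930 and 693 in MA12, 785, 578, 556 and 600 in MA24 and 689, 884, 1099 and 870 in Non-addicted rats. After scaling for library size, its level was 5.52 ± 0.22 log2 CPM in MA12 (SD, n = 4) and 4.94 ± 0.12 in MA24. The highest MA24 rat, 9N at 5.08, was below the lowest MA12 rat, 7N at 5.29, and the 2 N-numbered MA12 rats were the lower pair of their group. Zfp148 fell by 0.60 on the log2 scale in MA24 (SE 0.12, adjusted p = 0.00904), a fold of 0.662. The FC lay close to the limit of 1.5, and Zfp148 was no DEG with RLE scaling or in DESeq2 (log2FC -0.58 in both), nor without MA12 rat 21 (-0.48) or MA24 rats 14N or 15N (-0.56 in both), although its adjusted p stayed below 0.05 in these fits. The exact two-sided permutation test over the 70 splits of 8 rats gave p = 0.0286, the smallest this design allows.

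Zfp281 encodes ZBP-99, a C2H2 protein close to ZBP-89 that also binds GC-rich elements. Its counts were 757, 565, 553 and 525 in MA12, 465, 365, 471 and 331 in MA24 and 390, 548, 622 and 483 in Non-addicted rats. On the log2 CPM scale it averaged 4.79 ± 0.19 in MA12 and 4.31 ± 0.21 in MA24. The groups overlapped, since MA24 rat 15N at 4.60 was above MA12 rat 31 at 4.57. It fell by 0.48 on the log2 scale (SE 0.13, adjusted p = 0.0422), and the exact permutation p was 0.0571.

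Zfp317, a KRAB-containing C2H2 protein, had 523, 554, 473 and 357 counts in MA12 and 372, 343, 288 and 244 in MA24. All MA12 rats lay between 4.34 and 4.54 log2 CPM and all MA24 rats between 3.70 and 4.09. It fell by 0.53 on the log2 scale (SE 0.13, adjusted p = 0.0214). Its 4 Non-addicted rats spread from 3.79 to 4.34 with counts of 346, 279, 492 and 333, across the gap between the other groups.

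Zfp483 is a further C2H2 gene, whose counts were 2096, 1925, 1320 and 1322 in MA12 and 1384, 918, 1133 and 1084 in MA24. Its MA12 rats lay between 5.96 and 6.46 log2 CPM, with the 2 N-numbered rats again lowest, and its MA24 rats between 5.50 and 5.90. It fell by 0.47 on the log2 scale (SE 0.12, adjusted p = 0.0272). The Non-addicted rats had 1170, 1339, 1946 and 1373 counts, from 5.93 to 6.32 log2 CPM and thus above every MA24 rat.

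Zfp775 and Zfp513 moved the other way. Zfp775 had 438, 551, 385 and 419 counts in MA12, 652, 581, 547 and 543 in MA24 and 520, 407, 595 and 449 in Non-addicted rats. Its MA24 rats were nearly equal, at 4.83 ± 0.017 log2 CPM, and all 4 were above the MA12 rats at 4.37 ± 0.20 and the Non-addicted rats at 4.57 ± 0.18. It rose by 0.45 in log2FC (SE 0.12, adjusted p = 0.0347). Zfp513, known for its part in retinal development, had 1430, 1301, 1291 and 1091 counts in MA12, 1632, 1633, 1353 and 1504 in MA24 and 1124, 1315, 1509 and 1307 in Non-addicted rats. The log2FC was 0.34 (SE 0.098, adjusted p = 0.0491), with all 4 MA24 rats above the other 8.

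**Figure D1:**
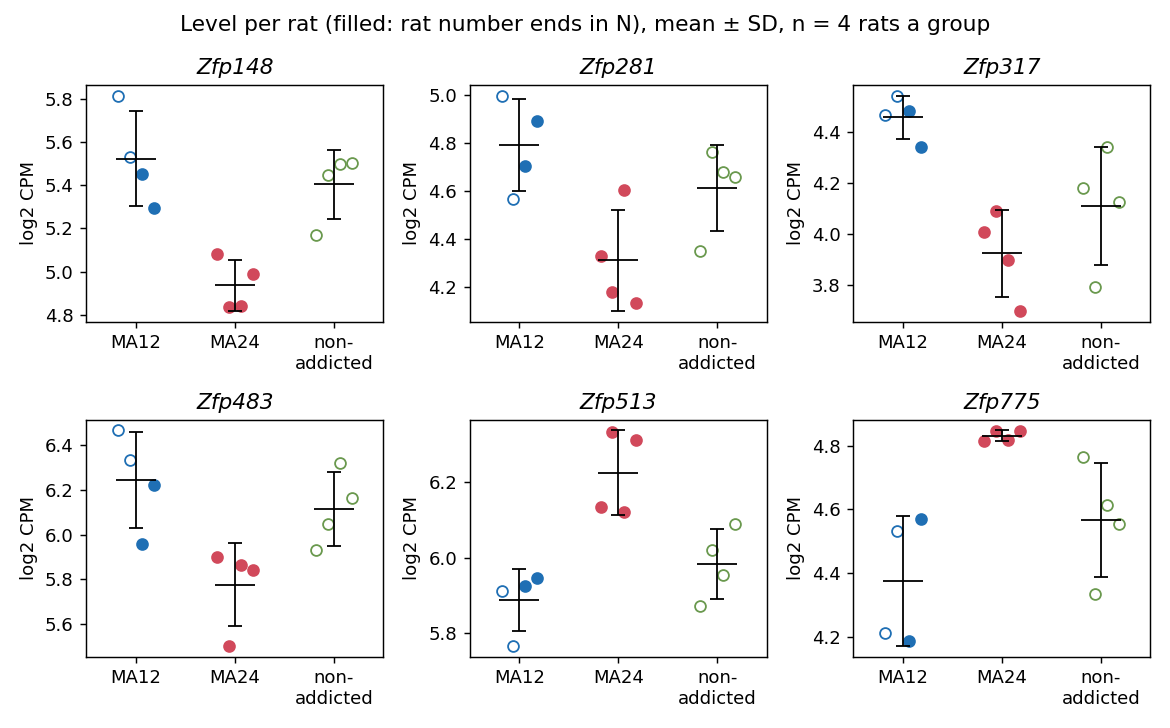
Level of the 6 members at an adjusted p below 0.05 between MA24 and MA12, as log2 CPM for each rat (points, filled where the rat number ends in N), with the group mean ± SD (n = 4). In 5 of the 6 panels the MA24 points do not overlap the MA12 points, and in the Zfp281 panel 1 MA24 rat, 15N at 4.60, sits above the lowest MA12 rat.

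The 6 calls changed with the rats included. Without MA12 rat 21, which had the highest Zfp148, Zfp281 and Zfp483 of its group, 1 of the 6 was left, namely Zfp148 (log2FC -0.48, adjusted p = 0.0397). Without MA24 rat 14N there were 2 calls and without 16N there was 1, whereas without 9N there were 9. With the N-numbered rats alone (2 MA12 and 4 MA24), no member passed in edgeR, and 17 had an unadjusted p below 0.05. Over all genes, 131 passed there against 555 with all 8 rats. For the 17 and for the fits without 1 rat, the share over all genes is not given here. In that set Zfp148 had a log2FC of -0.42 (adjusted p = 0.144) and Zfp483 of -0.30 (adjusted p = 0.336), while Zfp281 at -0.47, Zfp317 at -0.47, Zfp513 at 0.30 and Zfp775 at 0.45 stayed near their values in all 8 rats. That set holds only 2 MA12 rats, so a lost call there does not show that the call rested on the number. When all 8 rats were fitted with a term for N-numbering, no member passed either, with log2FC of the 6 from -0.49 for Zfp317 to 0.44 for Zfp775. The rats without an N were all in MA12, so this term left MA24 to be compared with the N-numbered MA12 rats. Both fits thus make the same comparison, and their closeness is no separate evidence. The direction of all 6 was the same in each of the 17 other fits made. These fits reuse the rats in which the 6 were picked, so a kept direction was likely from that choice alone.

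**Figure D2:**
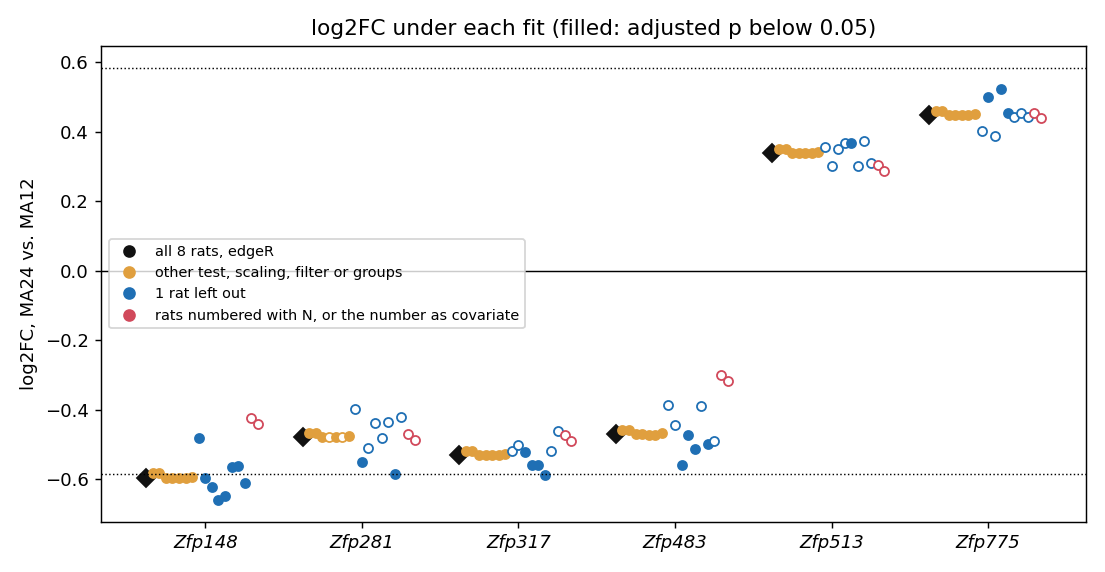
log2FC between MA24 and MA12 (vertical axis) of the 6 members under edgeR with all 8 rats (diamonds) and under 17 other fits (circles, coloured by what was changed), filled where the adjusted p was below 0.05. Zfp148 is filled in 15 of the 17 other fits and open in the 2 that use the rat numbers, and no member crosses 0.

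To show the DNA in front of the members that passed, the 250 bases before the annotated start of 5 of them are printed from RefSeq (GRCr8; Zfp483 is not shown), 5′ to 3′ on the gene's strand. Capitals mark the GC box letters GGGCGG and the CCAAT letters on either strand. The GC box is the target of Sp and Klf factors as well as of proteins such as ZBP-89, and CCAAT is that of NF-Y.
Zfp148 (chr11:80890878-80891127, minus strand): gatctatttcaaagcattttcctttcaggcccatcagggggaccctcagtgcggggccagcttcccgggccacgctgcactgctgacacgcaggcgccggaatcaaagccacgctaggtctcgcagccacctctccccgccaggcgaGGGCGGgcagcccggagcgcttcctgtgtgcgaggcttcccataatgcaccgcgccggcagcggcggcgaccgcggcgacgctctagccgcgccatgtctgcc
Zfp281 (chr13:50647572-50647821, plus strand): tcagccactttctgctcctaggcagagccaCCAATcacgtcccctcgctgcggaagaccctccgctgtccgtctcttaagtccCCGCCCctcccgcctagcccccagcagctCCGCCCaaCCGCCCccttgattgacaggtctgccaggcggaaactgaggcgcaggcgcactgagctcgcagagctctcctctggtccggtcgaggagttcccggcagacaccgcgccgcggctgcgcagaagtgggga
Zfp317 (chr8:25867428-25867677, plus strand): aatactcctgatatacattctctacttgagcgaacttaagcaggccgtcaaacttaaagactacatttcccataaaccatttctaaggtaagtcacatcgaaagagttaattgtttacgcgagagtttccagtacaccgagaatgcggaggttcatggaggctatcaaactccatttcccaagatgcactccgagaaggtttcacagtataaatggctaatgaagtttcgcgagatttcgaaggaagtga
Zfp513 (chr6:30893903-30894152, plus strand): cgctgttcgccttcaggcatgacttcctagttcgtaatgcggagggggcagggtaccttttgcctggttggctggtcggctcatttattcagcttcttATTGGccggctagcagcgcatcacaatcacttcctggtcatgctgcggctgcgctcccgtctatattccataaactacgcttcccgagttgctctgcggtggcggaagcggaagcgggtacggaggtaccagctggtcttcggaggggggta
Zfp775 (chr4:78887780-78888029, plus strand): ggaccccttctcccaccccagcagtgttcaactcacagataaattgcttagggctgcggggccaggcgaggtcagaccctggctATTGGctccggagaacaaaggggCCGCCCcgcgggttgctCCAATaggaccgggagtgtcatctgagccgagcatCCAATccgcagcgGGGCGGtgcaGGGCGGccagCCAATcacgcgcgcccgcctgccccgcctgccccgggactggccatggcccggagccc

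The windows of the members that fell differed among themselves. Zfp281 held 3 GC boxes and 1 CCAAT, Zfp148 held 1 GC box, and Zfp317 held neither and was AT-rich, with a GC content of 41.2%. Among those that rose, Zfp775 held 3 GC boxes and 4 CCAAT and Zfp513 held 1 CCAAT. Over the 141 members with an entry, 46.1% held a GC box against 30.5% of all 33469 promoters, with a median GC content of 57.2% against 51.2% and a median of 13 CpG sites against 5. The 33469 were not limited to genes expressed in striatum, as the members were. These differences are therefore not particular to the Zfp symbol as far as shown here. CCAAT was found in 37.6% against 34.0%, the E-box CACGTG in 5.67% against 5.59% and the cAMP response element TGACGTCA in 2.84% against 1.59%. The motifs may overlap one another, and a match describes the letters in the window, not a bound site.

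Taking all 160 members tested, the family was spread evenly about 0. The median log2FC between MA24 and MA12 was -0.016, as it was for all genes, with 75 members above 0 and 85 below. The extremes were Zfp819 at -0.80 (SE 0.34, adjusted p = 0.167) and Zfp692 at 0.60 (SE 0.18, adjusted p = 0.0620). Zfp819 rested on 21 to 64 counts in these 8 rats. Zfp692 was carried by rats 14N and 16N of MA24, with 1058 and 860 counts against 619 and 513 in the other MA24 rats. For 107 members the 95% interval of the difference lay wholly within a 1.5-fold change either way (66.9%, against 56.9% of all genes), so that most members were bounded to a small difference at this depth. The 2 groups did not overlap for 20 members, 12 higher and 8 lower in MA24 (12.5% in all, against 15.6% of all genes, of which 7.16% were higher and 8.4% lower).

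**Figure D3:**
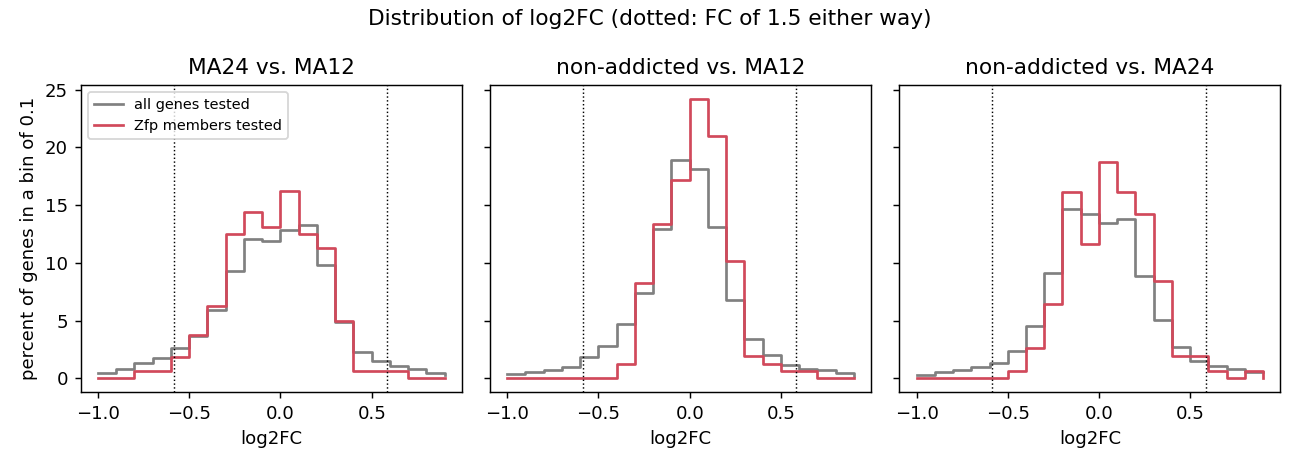
Percent of genes in each bin of 0.1 log2FC for the Zfp members tested (red) and for all genes tested (grey) in the 3 comparisons, with dotted lines at an FC of 1.5. The red curve is centred with the grey one for MA24 vs. MA12 (both medians -0.016) and lies slightly to its right in both comparisons of Non-addicted rats, with medians of 0.028 and 0.069.

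Taking the 5 largest differences each way among members with a mean count of at least 50 and groups that did not overlap named 6 more, none with an adjusted p below 0.05. Zfp397 had 166, 191, 135 and 132 counts in MA12 and 117, 80, 107 and 74 in MA24, with a log2FC of -0.64 (SE 0.20, adjusted p = 0.0675). Zfp958 had 277, 320, 186 and 224 counts in MA12 and 326, 447, 298 and 312 in MA24, with a log2FC of 0.55 (SE 0.17, adjusted p = 0.0601). Zfp397 and Zfp958 did not overlap between the groups after scaling, and both passed in DESeq2, with adjusted p of 0.0286 and 0.0259. Zfp384 (a nuclear matrix protein), Zfp523 and Zfp64 had log2FC of 0.37, 0.35 and 0.35, and Zfp830 (a splicing factor) of -0.26.

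The members with known molecular roles were next taken role by role. The role lists were drawn up with earlier results of these data known, so their counts and medians are no test of a role. Of the 3 mRNA decay factors, which bind AU-rich elements of short-lived mRNAs such as those of cytokines and immediate early genes, none passed. Zfp36 (tristetraprolin) had 129, 137, 166 and 122 counts in MA12, 119, 154, 177 and 179 in MA24 and 92, 131, 147 and 107 in Non-addicted rats. Its log2FC was 0.27 (SE 0.21), that of Zfp36l2 was 0.26 (SE 0.22) and that of Zfp36l1 was -0.23 (SE 0.12), and all 3 had groups that overlapped.

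Of the 6 tested members that act on RNA or ribosomes, none passed either, with 4 above 0 and a median of 0.11. Zfp598, the ubiquitin ligase that senses collided ribosomes, had a log2FC of 0.19 (SE 0.11). Zfp346 (a double-stranded RNA binder) had 0.23 (SE 0.11) and Zfp593 (ribosome assembly) 0.027 (SE 0.14). Zfp638, a nuclear RNA-binding protein, had 2180, 1910, 1606 and 1463 counts in MA12 and 1671, 1498, 1423 and 1101 in MA24. Its 4 MA24 rats all lay below the MA12 rats after scaling, with a log2FC of -0.25 (SE 0.11, adjusted p = 0.157). Zfp207, tested without the variance filter, had a log2FC of -0.056 (SE 0.075).

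Of the 7 members known from neurons or their development, none passed, and 5 were below 0 with a median log2FC of -0.23. Zfp365, which binds DISC1 and acts in neurite growth, had 9535, 11495, 11204 and 8092 counts in MA12, 9373, 6488, 7597 and 8455 in MA24 and 6266, 7925, 9730 and 8816 in Non-addicted rats. Its groups overlapped, with a log2FC of -0.26 (SE 0.11, adjusted p = 0.170). Zfp238 (RP58 or Zbtb18, a repressor in cortical development) had a log2FC of -0.23, Zfp521 of -0.32 and its relative Zfp423 of -0.27. Zfp503 (Nolz1), which marks the developing striatum, had 0.14 (SE 0.11) and its relative Zfp703 -0.015 (SE 0.12). Summed over the 7, the CPM ran from 651 to 740 in MA12, from 529 to 643 in MA24 and from 540 to 683 in Non-addicted rats. These sums are counts over library totals without TMM scaling, given with no test, and Zfp365 had by far the most counts.

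Zfp189 belongs to the same list and varied more between rats than between groups. It had 493, 400, 299 and 862 counts in MA12, 563, 828, 431 and 346 in MA24 and 417, 728, 623 and 638 in Non-addicted rats. The highest of all 12 rats on the log2 CPM scale was MA12 rat 7N at 5.61, and the other 3 MA12 rats, from 3.82 to 4.38, included the lowest. Its log2FC between MA24 and MA12 was 0.082 (SE 0.29), and it turned to -0.24 with the N-numbered rats alone. Without rat 7N it was 0.63 in this comparison, and 0.77 between Non-addicted rats and MA12 (adjusted p = 0.0278), against 0.22 with all rats (adjusted p = 0.805). Rat 7N was the highest of the lower group, so larger differences follow from leaving it out.

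Of the 13 tested members that act at promoters or on chromatin, Zfp148 and Zfp281 fell and none rose. Over all genes tested, 3.32% fell. In all, 11 of the 13 were below 0, with a median log2FC of -0.13, beside 5561 of 10754 genes and a median of -0.016 over the table. Because the list was made with earlier results known, these values do not show a fall of the role as a whole. Zfp644 had -0.22 (SE 0.095), Zfp652 -0.30 (SE 0.17) and Zfp410, an activator of the remodeller gene Chd4, -0.18 (SE 0.11). Zfp57, the KRAB protein that guards imprinted loci, was at -0.022 (SE 0.14), Zfp143 at -0.037 (SE 0.15), and Zfp746 (PARIS), tested without the variance filter, at -0.033 (SE 0.084). The summed CPM of all 16 members on this list ran from 591 to 644 in MA12, from 523 to 557 in MA24 and from 569 to 615 in Non-addicted rats. In these sums, made from counts over library totals without TMM scaling, the MA24 rats were below both other groups. The gap may not hold with that scaling, and no test was made.

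**Figure D4:**
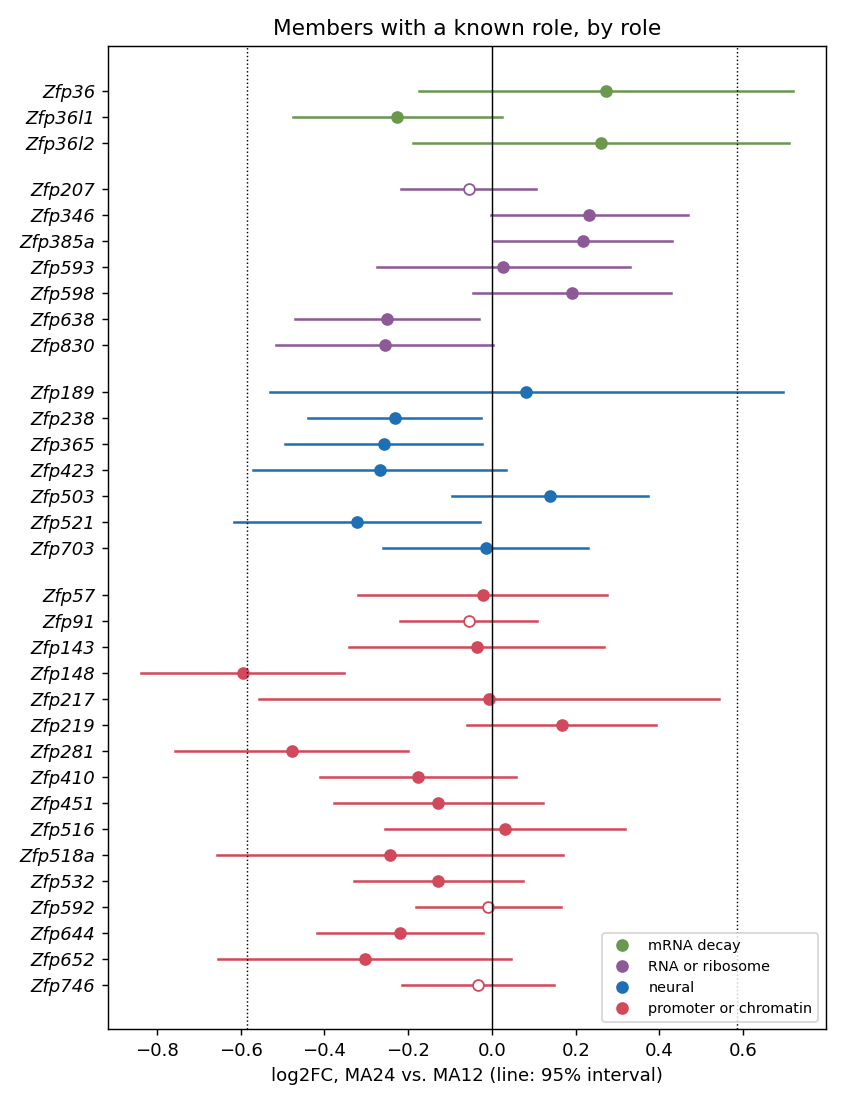
log2FC between MA24 and MA12 with its 95% interval for the 33 members of the role lists, coloured by role (open points were tested without the variance filter), with dotted lines at an FC of 1.5. Zfp148 is the point farthest from 0 at -0.60, and Zfp189 and Zfp217 have the widest intervals.

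The genes with which KRAB proteins work, and other zinc finger families, were also read. Of 15 such genes found in the table (among them Setdb1, Cbx3 and Dnmt1), 10 were tested and none passed between MA24 and MA12. Trim28 was not among the 10, so this result does not cover it. The closest were Trim24 with a log2FC of 0.29 (SE 0.12, adjusted p = 0.142) and Setdb1, the H3K9 methyltransferase, with 0.28 (SE 0.11, adjusted p = 0.139). In the Zbtb family, 32 were tested, of which Zbtb17 rose and Zbtb20 fell. Zkscan1 fell among 4 tested Zkscan and Zscan genes and Klf7 fell among 14 Klf genes, while none of 8 Sp and 13 Zc3h genes passed. All of these were read against the 5.16% called over all genes.

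Other gene groups were read in the same rats. Of 10 tested clock genes, Per2, Per3, Dbp and Ciart rose in MA24 and Arntl fell. Of 68 tested ribosomal protein genes, 65 had a log2FC above 0, with a median of 0.16, although Rpl36 was the one that passed. Among markers of other cells or regions, the summed CPM of 3 thalamic genes ran from 28.0 to 62.0 in MA12 and from 23.5 to 27.1 in MA24, where Prkcd fell. Of 7 vascular genes Rgs5 fell (log2FC -0.72, adjusted p = 0.0160), with a summed CPM from 461 to 608 in MA12 and from 509 to 572 in MA24. Of 10 tested markers of striatal projection neurons Pdyn fell (log2FC -0.57, adjusted p = 0.00838), with a summed CPM from 15562 to 18541 and from 17093 to 18220. None of 5 oligodendrocyte genes passed, with sums from 12071 to 20155 and from 16585 to 19858. The part of these in the members' differences was not tested.

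The comparison of Non-addicted rats with MA12 asked which members set the label Non-addicted apart from short abstinence. None of 157 members tested was a DEG, against 0.251% of all genes, and none had an adjusted p below 0.05, against 0.27%. In edgeR, 10 members had an unadjusted p below 0.05 (6.37%, against 12.3% of all genes), and DESeq2 and the likelihood ratio test also called 0. The median log2FC was 0.028 against -0.012 for all genes, with 94 members higher and 63 lower in Non-addicted rats. The groups did not overlap for 7 members (4.46%, against 7.1% of all genes, with 3.5% higher and 3.6% lower). Of the 7, Zfp511 was lower at -0.33 (SE 0.13) and Zfp455, Zfp707, Zfp384, Zfp668 and Zfp142 were the largest of the 6 that were higher, at 0.45, 0.31, 0.21, 0.21 and 0.20. For 123 members the 95% interval lay within a 1.5-fold change (78.3%, against 62.4%, again not matched for count).

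The 6 members that passed between MA24 and MA12 had smaller values here. Between Non-addicted rats and MA12 the log2FC was -0.13 for Zfp148 (95% interval -0.37 to 0.11), -0.19 for Zfp281, -0.34 for Zfp317 (SE 0.13, adjusted p = 0.282), -0.14 for Zfp483, 0.19 for Zfp775 and, without the variance filter, 0.090 for Zfp513. For all 6 the mean of the Non-addicted rats lay between those of MA12 and MA24. The comparisons share groups, so these positions are not independent of one another. The 6 were also picked for their differences between MA24 and MA12, so smaller values and means in between are likely from that choice alone. In this comparison the clock genes Per2, Per3 and Ciart were higher in Non-addicted rats and Arntl was lower. Pdyn was lower as well (log2FC -0.65, adjusted p = 0.0281), and of 7 vascular genes, all below 0, Kdr and Pdgfrb passed, with a summed CPM from 333 to 453 in Non-addicted rats and from 461 to 608 in MA12. Of 3 choroid plexus genes 2 were above 0 and none passed, though Ttr had the highest log2FC of all genes tested (5.91, adjusted p = 0.104). The part of these genes was not tested.

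The comparison of Non-addicted rats with MA24 gave 0 DEGs among 155 members tested, against 0.456% of all genes, and 0 with an adjusted p below 0.05, against 0.549%. In edgeR, 27 members had an unadjusted p below 0.05 (17.4%, against 17.5% of all genes). DESeq2 and the likelihood ratio test each called 2 members, Zfp148 and Zfp638, and the share they called over all genes is not given here. Zfp148 was higher in every Non-addicted rat than in any MA24 rat, with a log2FC of 0.47 (SE 0.11, adjusted p = 0.0622). Zfp638, at 6.49 ± 0.051 log2 CPM in Non-addicted rats and 6.11 ± 0.16 in MA24, had a log2FC of 0.38 (SE 0.10, adjusted p = 0.0865).

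The median log2FC of the members between Non-addicted rats and MA24 was 0.069 against 0.003 for all genes, with 97 higher and 58 lower. In the same comparison 6 of 71 ribosomal protein genes were above 0, with a median of -0.14, against 65 of 68 above 0 between MA24 and MA12. All 4 ependymal genes were above 0 (Foxj1 and Rsph1 passed), with a summed CPM from 38.3 to 103 in Non-addicted rats and from 26.9 to 44.7 in MA24. All 3 choroid plexus genes were above 0 as well and none passed, with sums from 3.86 to 20.8 and from 1.63 to 3.17. Of these, Ttr had the highest log2FC of all genes tested (5.59, adjusted p = 0.0807). All 5 oligodendrocyte genes were below 0 (Mbp passed), with 11452 to 16094 against 16585 to 19858, as were all 7 vascular genes (Cldn5 and Kdr passed), with 333 to 453 against 509 to 572. All 6 microglial genes were below 0 and none passed. None of 9 tested clock genes passed. The part of these gene groups was not tested. The groups did not overlap for 19 members, 13 higher and 6 lower in Non-addicted rats (12.3%, against 10% of all genes, with 5.1% higher and 4.9% lower). For 116 members the 95% interval lay within a 1.5-fold change (74.8%, against 60.8%, not matched for count). Those named by size were Zfp707 at 0.60, Zfp800 at 0.50, Zfp786 at 0.40 and Zfp292, a large neuronal zinc finger gene, at 0.39 among the higher, and Zfp414 at -0.36, Zfp574 at -0.28, Zfp775 at -0.26, Zfp513 at -0.25 and Zfp428 at -0.23 among the lower. Zfp707 rested on 44 to 90 counts per rat. Zfp36 was lower without separation of the groups, at -0.45 (SE 0.21, adjusted p = 0.269).

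Members that lie side by side in the genome did not share 1 direction in the longest run. By the order of genes in RefSeq (GRCr8), 41 members fell into 18 runs of neighbours, the longest holding 4. Between MA24 and MA12, its members Zfp26, Zfp426, Zfp266 and Zfp846 had log2FC of -0.39, 0.060, -0.0045 and 0.14. Zfp426 (SE 0.16) and Zfp266 (SE 0.11) were too near 0 for their signs to carry weight. Most other runs are not described here, and some of them shared 1 direction. Zfp354c at -0.42 stood beside Zfp879 at 0.29, and Zfp692 at 0.60 beside Zfp672 at 0.11. Of the 171 symbols, 9 are now listed under another name, among them Zfp161 (Zbtb14), Zfp191 (Zfp24) and Zfp259 (Zpr1). Zfp978 and Zfp772, both members, lead to 1 current gene, and genes of these clusters can share near-identical finger sequences, so counts of such neighbours carry that uncertainty.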

How the data were processed

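RNA was measured in the striatum of 12 rats. The deposited raw counts per gene were made by the authors from poly(A) libraries, with reads trimmed and aligned to rn6. The submitters' processing notes name cutadapt 1.18, STAR 2.7.0e, featureCounts and HTSeq 0.12.4. Strand and multi-mapping settings are not given in the sources used here.

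Groups came from the sample labels. Whether the 4 rats of a group came from separate cohorts is not given, and p-values measure the spread between these rats. Each pair of groups was fitted alone with edgeR 4.0.16 (R 4.3.3; TMM, quasi-likelihood test) after removing genes with a mean count of 4 or less over the 8 libraries and the 15% with the lowest variance. Members removed by the latter were read from a fit without it. Adjusted p is Benjamini-Hochberg over all genes tested. The log2 CPM used a prior count of 2 and TMM over 12 libraries. Summed CPM of gene lists and shares of counts used library totals without TMM. Alternatives were DESeq2 1.42.0, the likelihood ratio test, RLE scaling, other filters, all 3 groups in 1 fit, each rat left out, and the kind of rat number. The scripts were tested on simulated data.

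Named members were all that passed, the 5 largest rises and falls with a mean count of at least 50 and no overlap between groups, and the role lists. Members named for their spread, their place in a run, or as the extremes were chosen after their values were seen. The members and lists were chosen with earlier results of these data known. Protein sequences and transcript lengths were not used here.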

Additional observations from a re-analysis of the deposited data

Results flagged for a closer look

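Single rats stood apart from the other 3 of their group for 6 of 159 sets of 4 values examined (the named and role members in each group), by the ratio of the gap to the whole range on the log2 CPM scale, against 7.95 that chance alone would give. All 6 were low values. Zfp148 was low in Non-addicted rat 9, with a ratio of 0.836 and 689 counts against 870 to 1099 in the others, and without that rat its log2FC between Non-addicted rats and MA24 was 0.54 (adjusted p = 0.0321) instead of 0.47 (adjusted p = 0.0622). Rat 9 was the lowest of the higher group, so the larger difference follows from leaving it out and is no support for the call. Zfp483 was low in MA24 rat 14N, with a ratio of 0.853 and 918 counts against 1084 to 1384. Rat 16N of MA24 was low for both Zfp638 (ratio 0.886, 1101 counts against 1423 to 1671) and Zfp91, a ubiquitin ligase (ratio 0.865, 2149 counts against 2564 to 3001). Zfp57 was low in MA12 rat 31, with a ratio of 0.940 at 4.14 log2 CPM against 4.37 to 4.38. Zfp143 was low in Non-addicted rat 11, with a ratio of 0.894 and 208 counts against 253 to 331.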

How the results depend on the processing

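Between MA24 and MA12, the number of members called as DEGs (1) was 0 with RLE scaling, 2 in DESeq2 (Zfp397 and Zfp692, without Zfp148) and 3 by the likelihood ratio statistic (these and Zfp148), and 0 both with N-numbered rats alone and with the kind of number as a covariate. The number with an adjusted p below 0.05 (6) was 13 in DESeq2, 11 by the likelihood ratio statistic and 0 in both fits on the rat numbers, where 131 and 49 of all genes passed. Those fits both compare MA24 with the N-numbered MA12 rats, so they are not separate checks. The share of all genes called is not given here for DESeq2, the likelihood ratio statistic or the fits without 1 rat. Whether members gained calls there beyond the whole table is therefore not shown. Leaving out 1 rat gave 0 to 3 DEGs, 1 to 9 members at an adjusted p below 0.05 and a median log2FC from -0.062 to 0.020, and the median with N-numbered rats alone was 0.038. Between Non-addicted rats and MA12, leaving out 1 rat gave 0 to 1 members (1 without MA12 rat 7N, Zfp189). Between Non-addicted rats and MA24, DESeq2 and the likelihood ratio test each gave 2 at an adjusted p below 0.05, and leaving out 1 rat gave 0 to 1 (Zfp148 without rat 9, Zfp612 without rat 13). The cause was not tested.

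Some members near 0 changed sign between MA24 and MA12. Zfp189 had -0.24 with N-numbered rats alone and -0.25 with the covariate, Zfp217 had 0.0036 with RLE, 0.0041 with DESeq2, 0.062 with N-numbered rats and 0.046 with the covariate, and Zfp593 had -0.0027 and -0.019 in the last 2. With the covariate Zfp451 had 0.0068 and Zfp516 -0.0073. On leaving out 1 rat, the log2FC ran from -0.091 to 0.036 for Zfp143, -0.21 to 0.63 for Zfp189, -0.061 to 0.036 for Zfp217, -0.052 to 0.11 for Zfp516, -0.16 to 0.083 for Zfp57, -0.052 to 0.12 for Zfp593 and -0.094 to 0.045 for Zfp703. No paired analysis was possible because each rat belongs to 1 group and the groups share no replicate numbers. Raising the membership limit to a mean count of 50 kept 161 members and the same numbers of calls. Depth limits the 17 members with mean counts from 10 to 100 most, with a median SD between rats of 0.426.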
